A study of Mus musculus with 2 samples.

Results

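The enzymes that remove methyl groups from histone lysines, or add them, were followed here through 38 genes picked by symbol from a list. All 38 were found, among 34745 gene IDs in the deposited files: 15 demethylase genes and 23 methyltransferase genes. They were measured in 2 RNA sequencing libraries of peritoneal macrophages from C57BL/6 mice, 1 from animals labelled Kdm2b-/- and 1 from animals labelled wild type. Both groups had received thioglycollate, a broth that recruits macrophages into the peritoneal cavity, and their cells were harvested 4 days later. Both were then exposed to bacterial lipopolysaccharide (LPS) at 100 ng/ml, for 4 h according to the sample characteristics and 3 h according to the treatment protocol. With 1 library per group there was no replicate and no test across samples, so every value below describes these libraries. Age, sex, the design of the Kdm2b allele and the number of animals per library were not given in the sources used here.

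Histone lysine methylation marks active promoters and enhancers (H3K4), transcribed gene bodies (H3K36 and H3K79) and silenced chromatin (H3K9, H3K27 and H4K20). Methyltransferases take the methyl group from S-adenosylmethionine, most of them with a SET domain. Demethylases either use an amine oxidase domain with FAD, as the LSD enzymes do, or a JmjC domain that needs iron and 2-oxoglutarate. Kdm2b, the gene named in the genotype, is itself a JmjC demethylase of H3K36 and H3K4 and binds unmethylated CpG-rich DNA as part of a variant Polycomb complex. In macrophages, LPS is known to raise Kdm6b, an H3K27 demethylase, and interferon is known to raise Setdb2.

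Depth and identity of the libraries were checked first. Whole fragments could be read back from the deposited FPKM (sequenced fragments scaled to gene length and to library depth), with scaling totals of about 26800000 for the library labelled knockout and 27300000 for wild type. Kdm2b (ENSMUSG00000029475) gave more fragments under the knockout label than under wild type, 164 against 105, at 0.326 and 0.205 FPKM, a log2 fragment ratio of 0.67 with a 95% counting interval of 0.31 to 1.04. Its log2 ratio of FPKM + 1 was 0.14, and -0.0078 once trends with transcript length and GC content over all genes were removed. Summed over a gene, such a value cannot reveal the loss of single exons, and directions below are those of the library labels. The Y-linked genes Eif2s3y (1612 fragments) and Ddx3y (1423 fragments) were at 0 in wild type, and Xist, the RNA of the inactive X chromosome, was at about 2 and 4437 fragments. The libraries therefore differ in sex-linked expression, which cannot be told apart from the genotype labels. Macrophage markers were present in both, with Lyz2 at 11409 and 8945 FPKM and Adgre1 at 56.9 and 44.3 FPKM. Of 7 T and NK cell markers, 6 were at 0 in both, all but Cd4. Of 6 neutrophil markers, Ly6g, Mpo and Retnlg were at 0 in both, S100a8 stood at 14.6 and 13.8 FPKM, and S100a9 and Cxcr2 had 12 fragments or fewer. The 6 B cell markers summed to 2.86 FPKM under the knockout label and 27.3 FPKM in wild type, and none of the 6 was at 0 in both libraries. The 6 fibroblast markers summed to 335 and 291 FPKM, mostly Dcn at 251 and 248 FPKM. Their median log2 fragment ratio was 0.95, and 5 of the 6 were above 0. At least 1.5-fold higher under the knockout label were 4, where 17.7% of all genes with at least 20 fragments were. These were Col1a1 (2970 and 687 fragments), Col1a2 (10497 and 4275), Col3a1 (6596 and 2794) and Pdgfra (4871 and 3189). Lum was lower (621 and 825 fragments). The 6 mesothelial markers summed to 85.2 FPKM under the knockout label and 79.6 FPKM in wild type, with 3 above a log2 ratio of 0 and 3 below. The 6 mast cell and eosinophil markers summed to 0.791 and 1.73 FPKM, mostly Siglecf (91 and 274 fragments). The 5 dendritic cell markers summed to 0.902 and 0.812 FPKM, and the 5 erythroid and platelet markers to 0.152 and 0.0271 FPKM. The 5 proliferation markers summed to 22.0 and 19.8 FPKM. The part of these other cell types in the values below was not tested, and in bulk RNA fewer cells and less RNA per cell cannot be told apart.

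Most of the enzymes were low in level and stood somewhat higher in the library labelled knockout. Their deposited values ran from 0.405 to 11.9 FPKM there and from 0.346 to 12.3 FPKM in wild type. In fragments, 35 of the 38 were above a log2 ratio of 0, with a median of 0.55, against 65.2% of the 13066 genes with at least 20 fragments over both libraries, whose median was 0.17. The ratio used here is that of the FPKM values with no pseudocount, and its exact Clopper-Pearson 95% interval covers counting error only; fragments may include PCR duplicates. The interval lay above 0 for 33 members (86.8%), against 44.8% of all those genes, and below 0 for 0 members, against 19.5%. It spanned 0 for the other 5, which were Kdm4c, Kdm5b, Setdb2, Smyd3 and Smyd5. Intervals narrow as fragments increase, and these shares were not matched for fragment number. All 15 demethylase genes were above 0, and 20 of the 23 methyltransferase genes were.

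A fixed rule of size called few of them. A gene was called when log2 of FPKM + 1 differed by at least 1.5-fold and its mean over both libraries reached 1 FPKM, which 29 members did. On this scale Setd1a, Kdm7a and Kmt2a were higher in the library labelled knockout, 3 of 29, where 4.7% of 9038 genes were called. None of the 29 was lower, where 2.8% of all genes were. A ratio above 0 was found for 27 of the 29, where 63.2% of all genes had one. Among the 860 genes past the floor that were at least as long as the median member, 92% had a ratio above 0, 9.3% were called higher and 0.93% lower. No member reached 2-fold on this scale, a size that 0.863% of genes reached upward and 1.02% downward. The median of the 29 was 0.37 and that of all genes 0.10. The pseudocount shrinks the ratios of genes this low: without it, 17 of the 38 members (44.7%) were at least 1.5-fold higher, against 17.7% of all genes, and 0 were at least 1.5-fold lower, against 6.32%.

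Transcript length ran with these ratios. The longest annotated transcript of the members had a median of 6361 bases, against 3093 bases for all genes past the floor, and 20 members lay in the longest decile of those genes (6249 bases and up). Over all genes the median log2 ratio of FPKM + 1 went from -0.23 in the shortest decile to 0.29 in the longest, where 91.5% of genes were above 0. Among the 1567 genes with at least 20 fragments that were as long as the median member or longer, 87.7% had a fragment ratio above 0, 35% were at least 1.5-fold higher, and 72.5% had an interval above 0. The members' shares of 92.1%, 44.7% and 86.8% are close to these for the direction and above them for the size and the interval. These shares cover all 38 members, of which 19 are shorter than the genes of that set. The interval share also depends on fragment number, 55 to 2752 per library for the members, and was not matched for it. Of the 29 members past the floor, 23 were above the median of their own length decile. After removal of the length and GC content trends, their median was 0.18, against 0.10 for all genes, and 0 members were called, where 4.06% of 9016 genes were called higher and 2.11% lower. Across these 29 genes, which share both libraries and differ in length and base composition, Spearman's rho of the log2 ratio with length was 0.62.

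**Figure D1:**
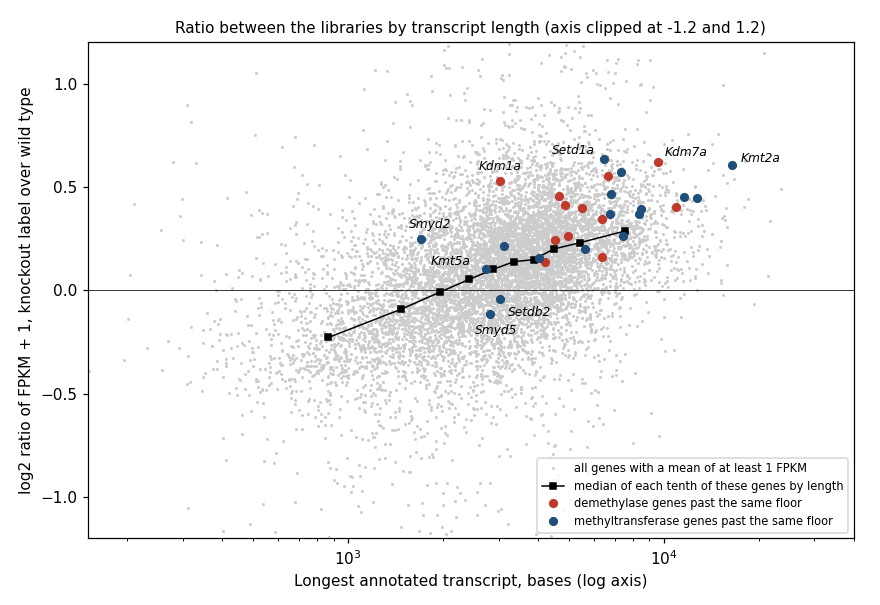
Each grey point is 1 gene past the floor of 1 FPKM, plotted by the length of its longest annotated transcript (bases, log axis) and its log2 ratio of FPKM + 1 between the library labelled knockout and the wild-type library; black squares join the medians of length deciles, red points are demethylase genes and blue points methyltransferase genes, and the vertical axis is clipped. The black line runs from -0.23 to 0.29, and 23 of the 29 coloured points sit above the median of their own decile.

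Levels can be compared between genes only per length, and the deposited length was not the usual one. For genes with several transcripts, FPKM gave whole fragments when every distinct annotated exon was added up without merging those that overlap: within 0.02 of a fragment for 74.8% of 2331 low genes in the library labelled knockout and 76.4% of 2415 in wild type. With merged exons this held for 5.14% and 5.66%. A gene with many overlapping exons is therefore listed too low, by a factor of 1 for Phf2 to 2.05 for Kmt5b among the members (median 1.4). Levels in the next sentences are rescaled to merged exons. Kmt5a, which encodes the H4K20 monomethyltransferase needed for chromosome compaction, had the highest mean of the members, at 19.3 FPKM under the knockout label and 17.8 FPKM in wild type. Setdb2 stood at 17.9 and 18.5 FPKM and was the higher of the pair in wild type. These 2 lay close to each other and well above Smyd2 (10.1 and 8.27 FPKM), Ehmt2 (9.67 and 8.46 FPKM) and Kdm4a (9.33 and 6.38 FPKM). The lowest was Kdm5b, at 0.475 and 0.405 FPKM, below Kmt2c at 0.719 and 0.535 FPKM. With no replicates, no spread can be set beside this order.

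**Figure D2:**
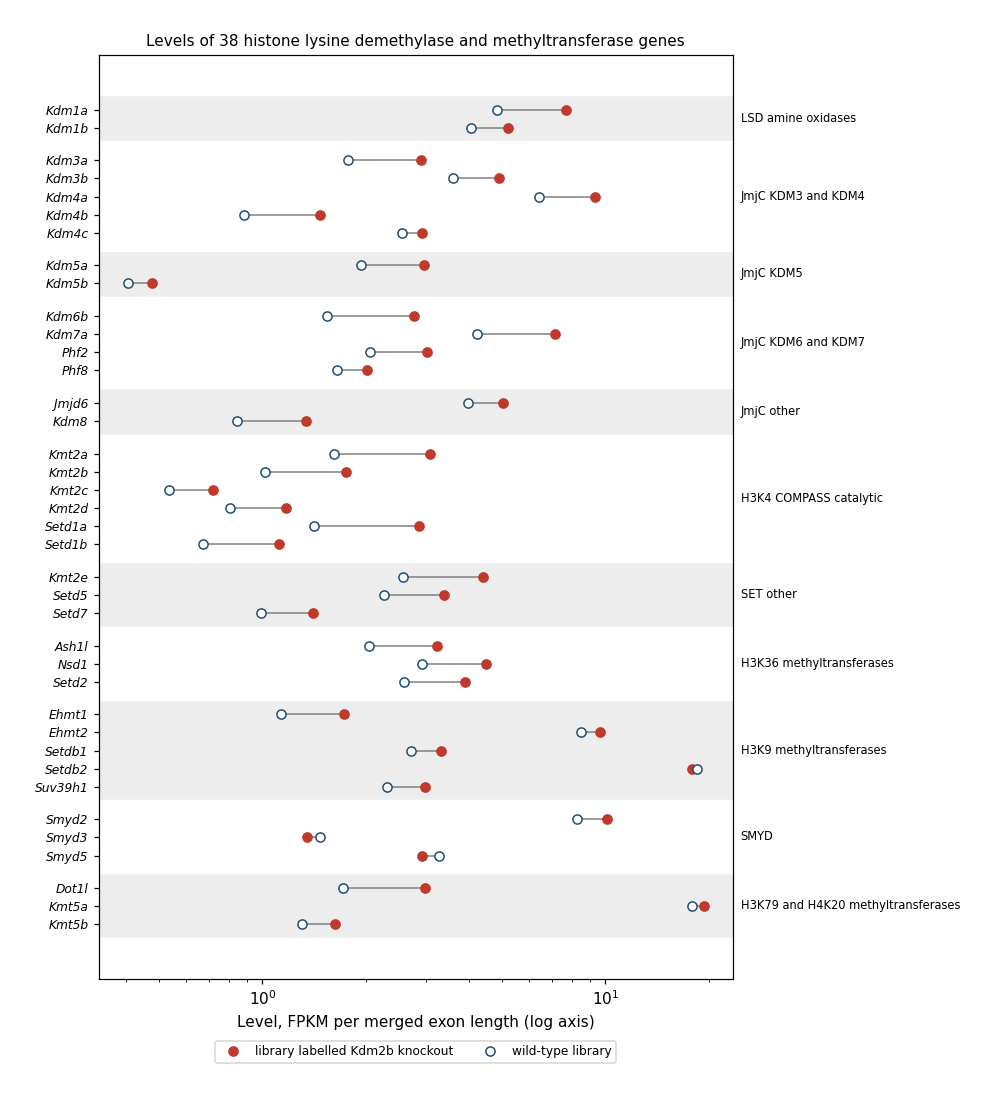
Levels of the 38 genes in FPKM per merged exon length (log axis), in the library labelled Kdm2b knockout (red) and the wild-type library (open blue), with genes grouped by role. The red point lies to the right of the blue for 35 genes, and for Setdb2, Smyd3 and Smyd5 it lies to the left.

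The LSD enzymes oxidise mono- and dimethylated H3K4. Kdm1a, the catalytic subunit of the CoREST corepressor, stood at 5.07 FPKM under the knockout label and 3.21 FPKM in wild type (1064 and 684 fragments), a log2 fragment ratio of 0.66 with an interval of 0.52 to 0.80. Its longest transcript has 3028 bases, close to the median gene, and its log2 ratio of FPKM + 1 was 0.53 before and 0.52 after removal of the trends. Kdm1b, which acts in gene bodies and in oocyte imprinting, stood at 3.00 and 2.34 FPKM, a log2 fragment ratio of 0.36 (0.21 to 0.52). Kdm1a was thus the further apart of the pair.

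Among JmjC enzymes of H3K9 and H3K36, 4 of 5 had an interval above 0 (80%). The share was 44.8% of all genes with at least 20 fragments, and 72.5% of those at least as long as the median member. Kdm3a, an H3K9 demethylase, stood at 1.82 and 1.12 FPKM (638 and 398 fragments, log2 fragment ratio 0.71, 0.52 to 0.89). Kdm4a, which acts on trimethylated H3K9 and H3K36, stood at 5.88 and 4.02 FPKM (1446 and 1006 fragments, 0.55, 0.43 to 0.67). Its paralog Kdm4b was low, at 0.838 and 0.504 FPKM (193 and 118 fragments, 0.73, 0.40 to 1.08). Kdm4c had a lower fragment ratio than these 3, at 2.71 and 2.37 FPKM, with an interval that reached just under 0 (0.19, -0.0037 to 0.39). Kdm3b, a paralog of Kdm3a, stood at 4.15 and 3.05 FPKM (0.45, 0.34 to 0.55). After removal of the length and GC trends, Kdm4c stood at 0.12 on the FPKM + 1 scale, between Kdm4b at 0.06 and Kdm3b at 0.13. Kdm3a stood at 0.35 and Kdm4a at 0.31 there.

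The KDM5 genes encode demethylases of trimethylated H3K4. Kdm5a stood at 2.32 and 1.51 FPKM (1126 and 746 fragments), a log2 fragment ratio of 0.62 (0.48 to 0.75). Kdm5b, the lowest member, stood at 0.405 and 0.346 FPKM (211 and 183 fragments), and its interval of -0.06 to 0.52 included 0, so no difference was detectable at this depth. Their X- and Y-linked paralogs, which are not among the 38, were also measured: Kdm5c on X had 1908 and 1852 fragments, and Kdm5d on Y had 315 and 0, where a count of 0 allows up to 3. The H3K27 demethylase gene Kdm6a on X stood at 1.44 and 1.73 FPKM, and its Y-linked paralog Uty had 249 and 0 fragments.

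Kdm6b and Kdm7a, demethylases of the repressive H3K27 and H3K9 marks, showed the highest ratios of the demethylase genes. Kdm6b stood at 2.64 FPKM under the knockout label and 1.48 FPKM in wild type (514 and 293 fragments), a log2 fragment ratio of 0.84 (0.63 to 1.05). Kdm7a (chr6:39136623-39206789, minus strand) stood at 6.35 and 3.77 FPKM (1915 and 1158 fragments), a ratio of 0.75 (0.64 to 0.86) and the only demethylase gene past the fold of 1.5 on the FPKM + 1 scale, at 0.62. Without the length and GC trends Kdm7a stood at 0.53 on that scale, whereas Kdm6b went from 0.55 to 0.24. Their relatives Phf2 (3.03 and 2.06 FPKM, log2 fragment ratio 0.56, 0.35 to 0.77) and X-linked Phf8 (1.38 and 1.13 FPKM, 0.29, 0.10 to 0.48), which read H3K4 methylation through a PHD finger, were closer between libraries. Kdm6b overlaps the exons of the antisense RNA Kdm6bos, Phf2 those of Phf2os1 and Kdm7a those of 4930599N23Rik. No strand marking is described for these libraries, so such reads cannot be assigned.

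The remaining JmjC genes have other or debated substrates. Jmjd6, an arginine demethylase and lysyl hydroxylase, stood at 2.67 and 2.10 FPKM (635 and 508 fragments, log2 fragment ratio 0.35, 0.18 to 0.52). Kdm8 had the fewest fragments of the 38, 86 and 55, at 1.21 and 0.762 FPKM, and therefore the widest interval (0.67, 0.16 to 1.19).

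The catalytic subunits of the COMPASS complexes, which write H3K4 methylation, had the highest median log2 fragment ratio of the 11 roles, 0.76. All 6 had an interval above 0, as did 44.8% of all genes with at least 20 fragments. Among such genes at least as long as the median member, 72.5% had one, and these 6 have a median longest transcript of 11912 bases. Setd1a (ENSMUSG00000042308; GRCm38 chr7:127776670-127800122, plus strand), which trimethylates H3K4 at promoters, had 520 fragments under the knockout label and 262 in wild type, a log2 fragment ratio of 1.01 (0.80 to 1.23). Kmt2a (ENSMUSG00000002028; chr9:44803355-44881296, minus strand), the MLL1 gene of blood cell development and leukaemia, stood at 2.54 and 1.33 FPKM (0.94, 0.81 to 1.07). Kmt2b, its closest paralog, stood at 1.34 and 0.784 FPKM (450 and 267 fragments, 0.78, 0.56 to 1.0). Setd1b (0.817 and 0.491 FPKM, 0.73, 0.49 to 0.98), Kmt2d (0.976 and 0.670 FPKM, 0.54, 0.36 to 0.72) and Kmt2c (0.567 and 0.422 FPKM, 0.43, 0.20 to 0.65) were under the floor of 1 FPKM. Kmt2c and Kmt2d are known to write H3K4 monomethylation at enhancers. These are long transcripts, up to 19823 bases for Kmt2d. After removal of the trends, Kmt2a stood at 0.42 and Setd1a at 0.36 on the FPKM + 1 scale, while Kmt2b stood at 0.07 and Setd1b, Kmt2c and Kmt2d lay between -0.07 and -0.03. Setd1a shares exons with Gm49388 on its own strand and 9430064I24Rik on the other, which makes its value uncertain. Kmt2a overlaps exons of AC061963.1 on the opposite strand. Among all 38 members, 18 overlap an exon of another annotated gene, 17 on the opposite strand and 3 on the same one (Setd1a, Ehmt1 and Jmjd6). The same limit holds for each of these.

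The start regions of the members with the highest ratios, Setd1a and Kmt2a, and of those with the lowest that could be matched, Setdb2 and Smyd5, are shown for their CpG content, since KDM2B, KMT2A and KMT2B bind unmethylated CpG through a CXXC domain. Each sequence is the 250 bases before the RefSeq start (GRCm38.p6), 5′ to 3′ on the gene's strand, with every CG in capitals.
Setd1a, chr7:127777139-127777388, plus strand: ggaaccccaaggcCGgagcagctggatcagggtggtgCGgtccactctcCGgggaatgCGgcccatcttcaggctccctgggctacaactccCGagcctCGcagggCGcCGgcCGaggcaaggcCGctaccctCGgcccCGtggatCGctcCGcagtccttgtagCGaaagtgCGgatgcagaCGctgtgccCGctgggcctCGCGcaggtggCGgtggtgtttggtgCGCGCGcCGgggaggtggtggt
Kmt2a, chr9:44881290-44881539, minus strand: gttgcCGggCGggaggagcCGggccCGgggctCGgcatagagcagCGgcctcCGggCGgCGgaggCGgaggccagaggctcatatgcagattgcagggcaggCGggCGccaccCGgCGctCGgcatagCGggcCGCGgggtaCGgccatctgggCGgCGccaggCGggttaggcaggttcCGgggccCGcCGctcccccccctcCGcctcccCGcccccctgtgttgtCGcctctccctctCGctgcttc
Setdb2, chr14:59440881-59441130, minus strand: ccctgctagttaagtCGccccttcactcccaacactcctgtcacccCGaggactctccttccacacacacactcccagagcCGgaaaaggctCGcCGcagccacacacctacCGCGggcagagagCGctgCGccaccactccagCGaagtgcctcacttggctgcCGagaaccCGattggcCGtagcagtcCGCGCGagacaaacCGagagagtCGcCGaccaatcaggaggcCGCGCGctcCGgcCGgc
Smyd5, chr6:85431726-85431975, plus strand: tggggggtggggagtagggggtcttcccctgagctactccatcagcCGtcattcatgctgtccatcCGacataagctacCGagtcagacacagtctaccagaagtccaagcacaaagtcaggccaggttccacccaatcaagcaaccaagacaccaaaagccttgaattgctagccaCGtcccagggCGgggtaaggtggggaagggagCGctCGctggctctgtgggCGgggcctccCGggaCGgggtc
Setd1a holds 25 CG in these bases, Kmt2a 29, Setdb2 24 and Smyd5 10. The Setd1a bases lie within the gene bounds given above, downstream of the start used there, so that count is not for a like region. RefSeq windows of 300 bases (250 before and 50 after a start) were matched for 28 of the 38 members, with 36 starts. They held a median of 28 CG, against 21 for 8697 windows of protein-coding genes past the floor and 7 for all 32851 windows. Windows with at least 1 match on either strand to GGGCGG, the GC box, made up 75% of the members' windows and 64.4% of those of expressed protein-coding genes (35.7% of all windows). For CCGGAA, an ETS factor core, these were 22.2% and 30.2% (14.9% of all), and for TGACGT, part of the cyclic AMP response element, 8.33% and 12.4% (7.51% of all). For an NF-kappaB motif, 1 of 36 windows matched, that of Setdb1, against 1.82% of windows of expressed genes and 1.63% of all. The 3 motifs spelled out contain CG and so are not independent of the CpG number. Ash1l, Kdm3b, Kdm4b, Kdm5a, Kdm6b, Kmt2b, Kmt2e, Nsd1, Setd1b and Smyd3 were not matched.

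The 3 SET genes with weak, debated or non-histone activity were also higher in the library labelled knockout. Kmt2e, a chromatin reader with a divergent SET domain, stood at 3.62 and 2.11 FPKM (1233 and 731 fragments), a log2 fragment ratio of 0.78 (0.65 to 0.91). Setd5, whose loss is linked to intellectual disability, stood at 2.12 and 1.42 FPKM (0.58, 0.47 to 0.69). Setd7, which methylates H3K4 and several other proteins, stood at 1.32 and 0.936 FPKM (0.50, 0.28 to 0.72).

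The H3K36 methyltransferase genes were alike in ratio. Setd2, which trimethylates H3K36 behind RNA polymerase II, stood at 2.07 and 1.38 FPKM (1120 and 758 fragments, 0.59, 0.45 to 0.72). Nsd1, a dimethyltransferase, stood at 3.22 and 2.10 FPKM (0.62, 0.52 to 0.72), and Ash1l, which keeps developmental genes active, at 2.70 and 1.71 FPKM (1282 and 825 fragments, 0.66, 0.53 to 0.79). All 3 intervals lay above the all-gene median of 0.17 and overlapped each other. The median of genes at least as long as the median member was 0.448, which the lower bound of Setd2, 0.454, only just cleared. After removal of the length and GC trends, Setd2 stood at 0.24, Nsd1 at 0.26 and Ash1l at 0.30 on the FPKM + 1 scale, where the median of all genes was 0.10.

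H3K9 methyltransferase genes, whose products silence genes and repeats, were nearer to equal. Setdb2 had 1945 fragments under the knockout label and 2044 in wild type, at 11.9 and 12.3 FPKM, and its log2 fragment ratio of -0.05 (-0.14 to 0.04) lay below the all-gene median. Ehmt2, which encodes G9a, stood at 5.08 and 4.44 FPKM (1423 and 1267 fragments, 0.19, 0.08 to 0.30). Its partner Ehmt1 (GLP) stood at 0.938 and 0.611 FPKM, further apart (0.62, 0.38 to 0.85), and the counting intervals of these partners do not overlap. Ehmt1 shares exons with Gm37139 on its own strand, and after removal of the trends Ehmt1 stood at 0.10 and Ehmt2 at -0.02 on the FPKM + 1 scale. Setdb1, the enzyme recruited by KRAB zinc finger proteins, stood at 2.64 and 2.17 FPKM (0.28, 0.11 to 0.46). Suv39h1, an X-linked gene for an enzyme that trimethylates heterochromatin, had 421 and 332 fragments (0.37, 0.16 to 0.58).

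The SMYD genes held 2 of the 3 members that were lower in the library labelled knockout. Smyd5 stood at 2.04 and 2.29 FPKM (458 and 523 fragments, -0.17, -0.35 to 0.02) and Smyd3 at 0.834 and 0.906 FPKM (333 and 368 fragments, -0.12, -0.34 to 0.10). Both intervals included 0, so a difference from 0 was not detectable for either gene with this number of fragments. Both also lay wholly below the all-gene median of 0.17. Smyd2, which methylates p53 and other proteins besides histones, went the other way at 7.22 and 5.92 FPKM (735 and 613 fragments, 0.29, 0.13 to 0.44).

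Dot1l, the methyltransferase of H3K79 and the one methyltransferase listed without a SET domain, stood at 1.93 and 1.11 FPKM (693 and 408 fragments), a log2 fragment ratio of 0.79 (0.61 to 0.97). The H4K20 enzymes differed less: Kmt5a, at 10.4 and 9.60 FPKM as deposited, had 2752 and 2583 fragments (0.12, 0.04 to 0.19), and Kmt5b 0.793 and 0.636 FPKM (0.32, 0.15 to 0.49). After removal of the trends Dot1l went from 0.47 to 0.17 on the FPKM + 1 scale.

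**Figure D3:**
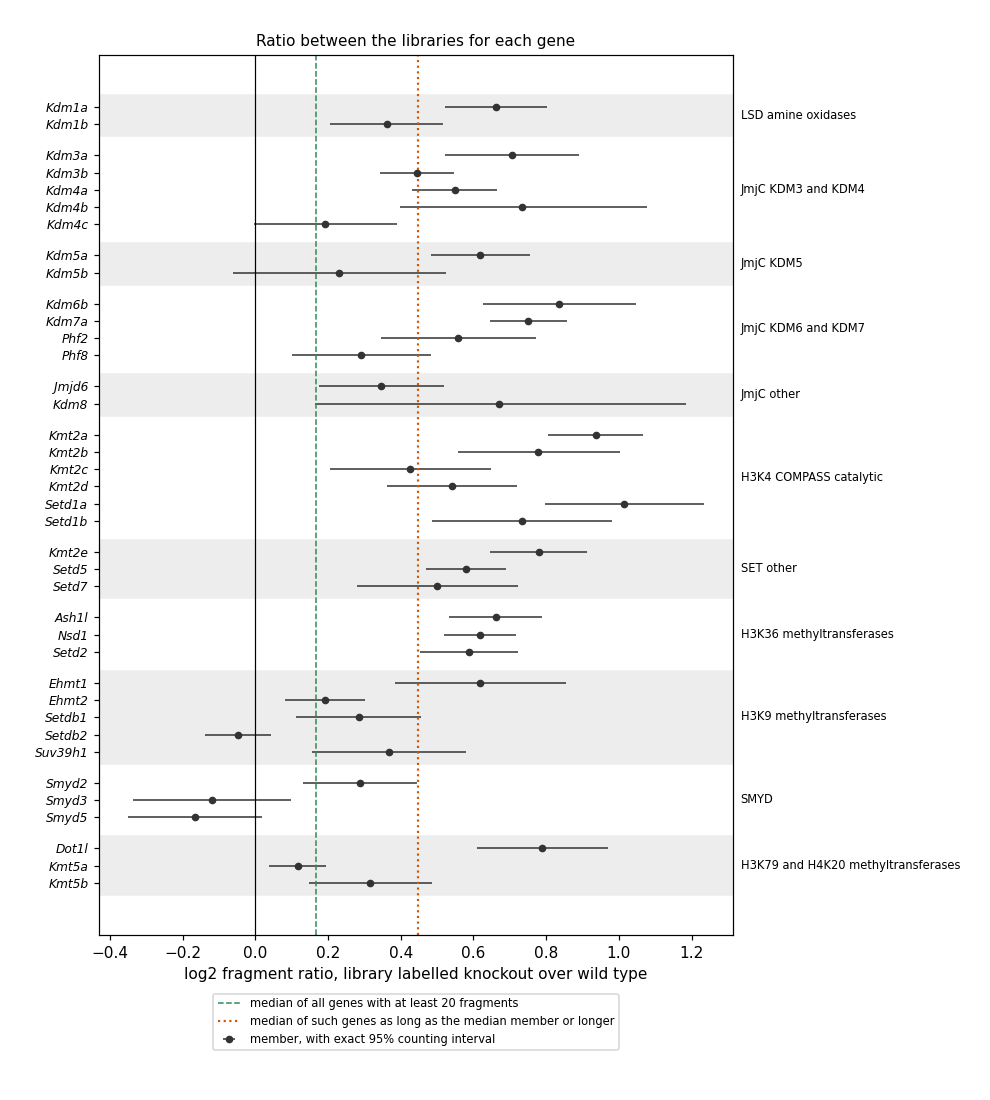
Log2 fragment ratio of the library labelled knockout over wild type for each of the 38 genes, grouped by role; bars are exact 95% intervals from counting error alone, the dashed line is the median of 13066 genes (0.17) and the dotted line that of 1567 genes at least as long as the median member (0.45). For 33 genes the bar lies right of 0, for 15 it lies right of the dotted line and for 7 left of it.

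Set against long genes, the members split. Of the 38 intervals, 15 lay above 0.45, the median of genes at least as long as the median member, 7 lay below it and 16 included it. Members at least as long as the median one had a median log2 fragment ratio of 0.62, and the 19 shorter members 0.35, where all shorter genes had 0.13. The 7 below were Kdm4c, Ehmt2, Setdb2, Smyd2, Smyd3, Smyd5 and Kmt5a, each with a longest transcript shorter than the median member's except Smyd3.

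Other genes of the same pathways gave the setting, from 8 lists written by function. Over all genes past the floor, 4.7% were called higher, 2.8% were called lower and 63.2% were above 0. Of the non-catalytic COMPASS subunits, 13 of 14 passed the floor, 12 of these were above 0 and 2 were called higher, Hcfc1 (984 and 504 fragments, log2 ratio of FPKM + 1 0.63) and Ncoa6, a subunit of the KMT2C and KMT2D complexes (2.88 and 1.55 FPKM, 0.61). Hcfc1 is X-linked. Psip1 (0.47) and Bod1l (0.38) followed, while Dpy30, a shared core subunit with a short transcript, stood at 23.7 and 28.1 FPKM (-0.24, and 0.22 after removal of the length and GC trends). The list median was 0.28.

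Partners of the LSD1 and DOT1L enzymes held no called gene. Of 7 CoREST partners past the floor, 0 were called, with the scaffold gene Rcor1 at 3.75 and 2.20 FPKM (0.57), Zmym2 at 4.55 and 2.79 FPKM (0.55) and the abundant Glyr1 at 29.2 and 26.9 FPKM (0.11); the median of these 7 was 0.11. Over all 12 listed partners the median log2 fragment ratio was 0.48. Of these, 9 had an interval above 0 (75%), against 44.8% of all genes and 72.5% of those at least as long as the median member. At least 1.5-fold higher were 4, where 17.7% of all genes and 35% of those long ones were. Of the 8 DOT1L and elongation partners past the floor, 0 were called and all 8 were above 0, with a median of 0.41, or 0.24 after removal of the trends. Aff4 (0.48), Ell (0.47), Supt6 (0.45) and Aff1 (0.42) had the largest ratios. H3K9 partners and readers had 8 genes past the floor, 0 called and a median of 0.20, and over all 11 listed the median log2 fragment ratio was 0.34. The heterochromatin protein genes Cbx3 (1.39 and 0.666 FPKM, 0.52) and Cbx5 (1.92 and 1.11 FPKM, 0.47) led them, with Uhrf1 (0.39) and Trim28 (0.29) next.

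Among genes of the 8 lists past the floor, the largest ratio in size was in the JmjC gene Riox2, a nucleolar ribosomal histidine hydroxylase also studied as an H3K9 demethylase. It stood at 1.73 FPKM under the knockout label and 5.74 FPKM in wild type (333 and 1126 fragments), a log2 fragment ratio of -1.73 (-1.91 to -1.56). On the FPKM + 1 scale it was the one called gene, and was called lower, of 12 past the floor in that list of 20. The median of these 12 was 0.15. In fragment ratio, 5 of the 19 listed genes with at least 20 fragments were at least 1.5-fold higher, where 17.7% of all genes were. Kdm5d and Uty are among these 5. At least 1.5-fold lower were 2, where 6.32% of all genes were. Hspbap1 (0.38), Jarid2 (5.41 and 4.10 FPKM, 0.33) and Rsbn1 (0.30) were above 0. Other SET genes had 8 of 22 past the floor, 0 called and a median of 0.21, with Prdm2 (0.39), Prdm1 (0.38), Setd3 (10.4 and 8.39 FPKM, 0.28) and Setmar (-0.26) furthest from 0. Ezh2, the Polycomb H3K27 methyltransferase, was just under the floor at 1.17 and 0.777 FPKM (285 and 192 fragments).

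**Figure D4:**
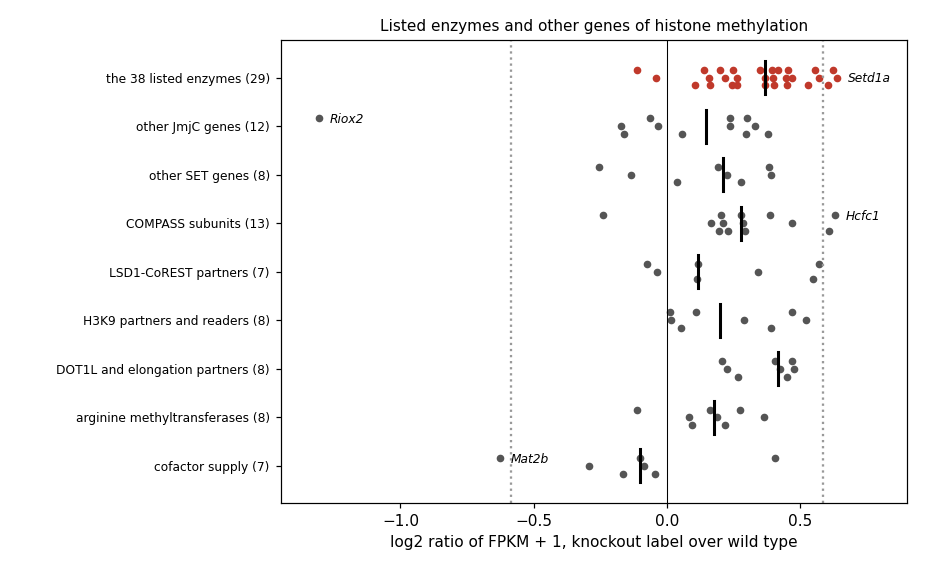
Log2 ratio of FPKM + 1 (library labelled knockout over wild type) for genes past the floor of 1 FPKM, 1 point per gene, for the listed enzymes (red) and 8 lists of other genes of histone methylation (grey), with the number plotted in brackets; vertical bars are list medians and dotted lines mark 1.5-fold. Riox2 lies alone at -1.31, and the listed enzymes have a median of 0.37.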

How the data were processed

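Per the file headers, the authors deposited 1 FPKM value per Ensembl gene and library. Builds (GRCm38.p4, mm10) and tools (StringTie 1.3.0, HISAT2 2.0.4, edgeR) are credited to the submitters' processing notes. The annotation release, the filters and the part each tool played were not given in the sources used here. Libraries, per the labels' protocols, were poly-A selected, randomly primed and paired-end. Symbols, exons and lengths came from GENCODE M21 (GRCm38; 34267 IDs matched, 478 did not). 1 fragment's worth of FPKM times length was found as the step on which most genes fall, and FPKM divided by it gave fragments; 30 of the 38 members came out whole in both libraries (within 0.02), and the other 8 (Kdm1b, Kdm3b, Phf2, Kmt2a, Kmt2d, Nsd1, Ehmt1 and Kmt5b) are estimates, which touches their intervals but not their ratios. The calculations (Python 3.11.15, scipy 1.17.1) were tested on simulated data. Calls used log2 of FPKM + 1, a mean of at least 1 FPKM and 1.5-fold. Length and GC trends were removed as medians over 20 bins each, keeping the overall median. All 38 members are named, and up to 4 genes with the largest ratios from each of 8 lists, of which 1 gene is not reported here; Kdm2b and genes named for sex linkage, markers, Dpy30, Ezh2 and Mat2a stand outside that rule, the last 3 and the sex-linked paralogs being chosen after their values were seen. The members and lists were chosen with earlier results of these data known. Alternatives were pseudocounts, scalings, floors, folds, the length and GC trend and protein-coding genes alone; 2 more were added after seeing the data.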

Additional observations from a re-analysis of the deposited data

How the results depend on the processing

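No paired analysis was possible because each group has 1 library, and for the same reason no replicate could be left out. The count of members lower was 0 in every setting run. The count higher, 3 as reported, was 12 with a pseudocount of 0.1 (9.91% of all genes) and 0 with 5 (1.04%), 17 at the lowest fold tried (20.7%) and 0 at 2-fold (0.863%). It was 0 with libraries scaled to a median of 0 (2.54%), 1 with equal upper quartiles (3.37%), 6 with equal totals (7.38%), 1 of 4 at a floor of 5 FPKM (3.98%) and 0 without the length and GC trends (4.06%). The fragment ratio without a pseudocount, added after seeing the data, gave 17 (17.7%). The median log2 ratio of the members, 0.37 as reported, was 0.54 with a pseudocount of 0.1, 0.16 with 5, 0.18 at a floor of 5 FPKM, 0.18 with the trend removed and 0.55 as a fragment ratio. Among all genes, the balance of higher against lower calls turned with the median scaling (230 higher, 387 lower, from 425 and 253), which takes the median of all genes from 0.10 to 0; with equal upper quartiles it was 305 and 306, and with equal totals it was 667 and 195. Without those trends, the members Ehmt2, Kdm5b, Kmt2c, Kmt2d, Kmt5b, Phf8, Setd1b and Setdb2 crossed 0, as did Kdm2b, Kdm5c and Dpy30; Kmt5a and Glyr1 did so with the median scaling and Setdb2 with equal totals; the cause was not tested. Of 653 single-gene values recomputed, 0 called ones changed direction, and 218 moved by more than their counting interval. Depth limits Kdm8, Kdm4b and Kdm5b most.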

Other observations

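Genes that supply or spend the cofactors of these enzymes were mostly near or below a log2 ratio of 0. Of 7 past the floor, 1 was above 0, and the median of these 7 was -0.10. Mat2b, the regulatory subunit of S-adenosylmethionine synthesis, was called lower in the library labelled knockout, at 4.34 and 7.25 FPKM (817 and 1389 fragments, log2 fragment ratio -0.74, -0.87 to -0.62). The catalytic subunit gene Mat2a was close, at 10.5 and 10.9 FPKM. Ahcy, which clears the S-adenosylhomocysteine left by methyl transfer, was the 1 gene past the floor above 0, at 10.6 and 7.75 FPKM (0.45, 0.31 to 0.60). The isocitrate dehydrogenase genes Idh2 (11.4 and 14.1 FPKM) and Idh1 (12.3 and 13.9 FPKM), makers of 2-oxoglutarate, were a little lower in the library labelled knockout, and their counting intervals lay below 0.

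Arginine methyltransferase genes, which modify other histone residues, had 8 of 9 listed symbols matched to a row, all past the floor, with 0 called, 7 above 0 and a median of 0.18. Carm1, a coactivator enzyme, stood at 2.97 and 2.08 FPKM (log2 ratio of FPKM + 1 0.36), Prmt5 at 5.32 and 4.22 FPKM (0.27), Prmt7 at 0.22 and Prmt3 at 0.19 on that scale.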
